A study of Mus musculus with 10 samples.

Results

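Mucins, goblet cell proteins and the enzymes that build mucin sugars were followed through 10 arrays of colitic mouse colon, as 45 genes chosen by name and sorted by role. Of these, 42 had a named probe set on the array, out of 19505 named genes in all, and each had a single probe set. The 3 others, Muc3, Muc6 and St6galnac6, were not analysed here. The 42 were 7 mucins, 11 further proteins secreted by goblet cells, 7 genes of the secretory machinery, 5 transcription regulators and 12 glycosyltransferases.

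Goblet cells are the mucus-secreting cells of the intestinal epithelium. In the colon they release the gel-forming mucin Muc2, whose protein core is folded and joined into polymers in the endoplasmic reticulum and then densely covered with O-linked sugars in the Golgi. The resulting gel keeps bacteria away from the epithelium, and thinning of this layer is a known feature of colitis from dextran sulfate sodium.

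The arrays were Clariom S Mouse single-colour arrays hybridised with total RNA of complete colon from wild-type C57BL/6 mice. Mice of both groups had colitis from 3% dextran sulfate sodium (DSS), taken with the drinking water, together with an intraperitoneal anti-PD1 antibody, which blocks the checkpoint receptor PD1. The 5 ECP arrays came from mice that had also been given ECP-treated donor cells, and the 5 control arrays from mice without them. ECP is extracorporeal photopheresis, the exposure of leukocytes outside the body to a photosensitiser and ultraviolet A light. The labels give neither sex, age, the dose and kind of donor cells, nor the day of sampling, and arrays from healthy colon or from mice given untreated cells were not analysed here. Values are log2 RMA intensities, and values of different genes are not set against each other, because probe sets differ in brightness. Differences are ECP minus control on the log2 scale, with limma's 95% confidence interval (CI), and mean values carry SD over the 5 arrays of a group.

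The colon label was checked against cell markers. Of the 8 goblet cell markers 7 belong to the genes under study, so their level only restates those genes, and the eighth, Zg16, a lectin-like protein of colonic mucus, was at 13.23 ± 0.03 in ECP arrays and 13.22 ± 0.12 in the controls. The goblet cell markers together averaged 12.33 ± 0.09 in ECP arrays and 12.29 ± 0.18 in the control arrays, the epithelial markers 11.57 ± 0.03 and 11.55 ± 0.08, and the colonocyte markers 11.96 ± 0.12 and 11.82 ± 0.32 (SD, n = 5 each). Transcripts of another organ were also present. The mean of 13 measured pancreatic acinar genes of 15 listed was 5.32 to 5.49 in the ECP arrays, against 9.77, 5.56, 5.39, 11.80 and 6.20 in control replicates 1 to 5, so that control replicates 4 and 1 stood out. The level of 6 measured B cell genes of 7 listed was 5.77 to 6.99 over the ECP arrays, against 8.65 in control replicate 4 and at most 6.14 in the other controls. Differences of the 42 genes, and counts over the gene lists, are therefore also given without control replicate 4. Control replicate 1 stays in those values, so they are not free of the pancreatic signal. Signs that reversed without both arrays are given in the section on processing.

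No gene of the goblet and mucin set passed the test. With limma, 0 of the 42 had an adjusted p under 0.05, as did 0 of 19505 genes (0%), and 2 of the 42 had an unadjusted p under 0.05, against 5.08% of all genes. One was Galnt4, with higher values in ECP arrays, where 2.31% of all genes were, and the other was Agr3, with lower values, where 2.77% of all genes were. The median difference over the 42 was 0.04, beside 0.0078 over all genes. For 35 of the 42 the whole CI lay within 0.5 on the log2 scale on either side of 0, as it did for 17750 of 19505 genes. For the other 7 it reached further. Those 7 were Tff2, Clca4b, Ang4, Atoh1, Gcnt3, B3gnt6 and B3gnt7.

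The sign of the set's median difference turned with 1 array. Over all arrays 29 of the 42 differences were above 0, where 53.3% of all genes were above 0. Without control replicate 4 this count was 11 of 42, where 51% of all genes were above 0, and the median difference of the set was -0.04. The median of the glycosyltransferases was 0.06 with all arrays and 0.0063 without that array, where 6 of the 12 were above 0. The difference in their mean level did turn, from 0.03 with all arrays to -0.05 without control replicate 4. Without that array 0 of the 42 passed the adjusted threshold, as did 0 of all genes (0%). An unadjusted p under 0.05 was then found for 3 of the 42, where 6.4% of all genes had one. These were Galnt4 on the higher side, which held 2.86% of all genes, and Agr3 and Foxa2 on the lower side, which held 3.54%.

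**Figure D1:**
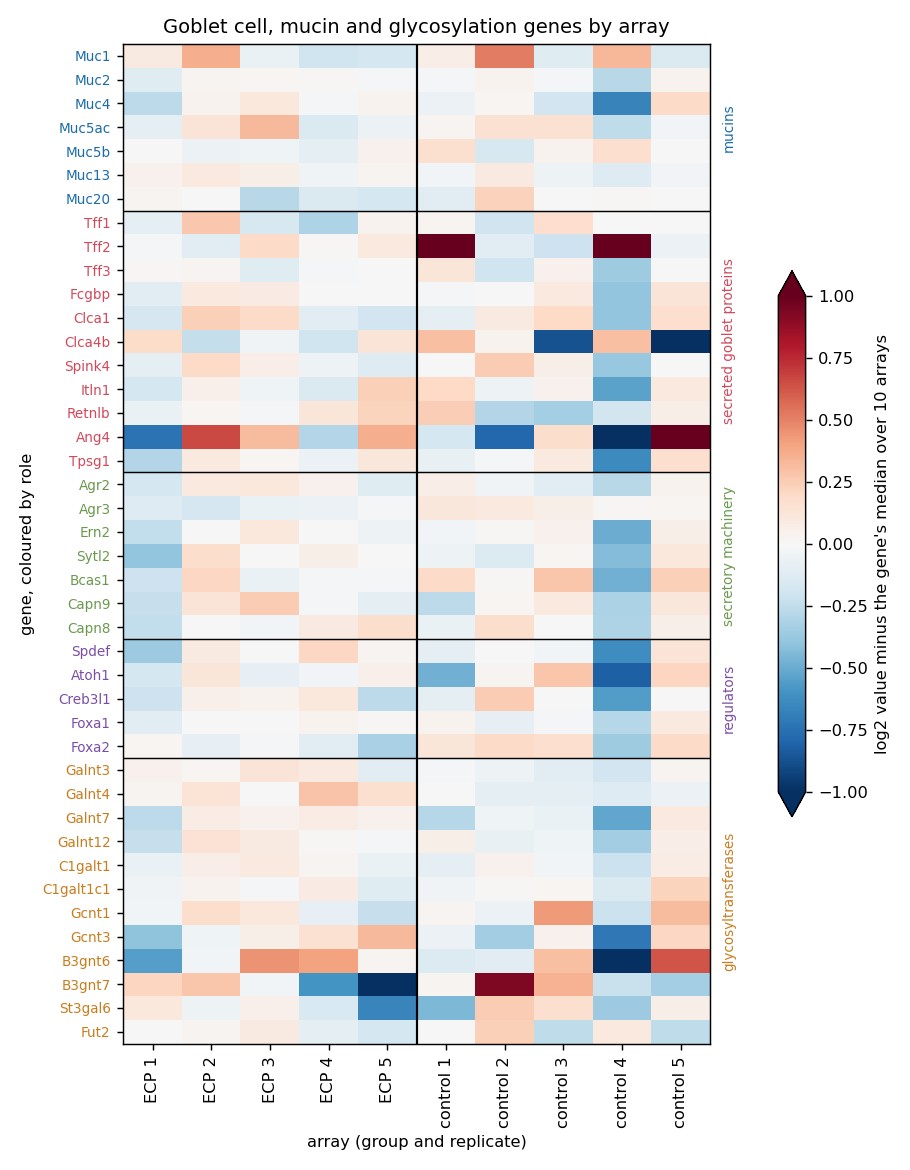
Each cell is a gene's log2 value on an array minus that gene's median over the 10 arrays, with genes in rows by role and arrays in columns, ECP arrays left of the line; colours are clipped at 1 and -1. The control replicate 4 column is blue for most genes, and Tff2 is red in control replicates 1 and 4.

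Control replicate 4 was the lowest of the 10 arrays for 30 of the 42 genes, where it was the lowest for 20.4% of all genes. The 30 included Muc2, Fcgbp, Clca1, Agr2, Ern2, Atoh1, Spdef and Creb3l1, and they came from each of the 5 roles. It was the highest array for 3 of the 42, Muc5b, Tff2 and Clca4b, where it was the highest for 15.7% of all genes. The mean level of the 42 genes was 9.56, 9.78, 9.74, 9.67 and 9.65 in ECP replicates 1 to 5, against 9.71, 9.72, 9.71, 9.44 and 9.76 in control replicates 1 to 5. The 4 other controls lay close together, and control replicate 4 lay below every other array. Without it the difference in mean level was -0.05 with SE 0.04, and with it 0.01 with SE 0.07. In bulk tissue, fewer goblet cells, less RNA per goblet cell and a larger share of RNA from other tissue cannot be told apart.

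Other markers moved with that array. The epithelial marker level was 11.54 to 11.60 in the ECP arrays, against 11.42 in control replicate 4, and the colonocyte level was 11.77 to 12.09 in the ECP arrays, against 11.27 there. The neutrophil level, over 6 measured genes of 7 listed, was 6.28 to 6.69 in the ECP arrays, against 7.85 in control replicate 4. The other controls ran from 5.72 in replicate 5 to 6.93 in replicate 1, beyond the ECP values on both sides. The smooth muscle level was 10.10 to 10.63 in the ECP arrays, against 9.51 in control replicate 1 and 9.83 in control replicate 4. The part of these other tissues and cells in the low goblet values was not tested. Among the ECP arrays, replicate 1 was the lowest for 21 of the 42 genes, where it was the lowest ECP array for 22.9% of all genes, and it had the highest B cell level of the ECP arrays (6.99).

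**Figure D2:**
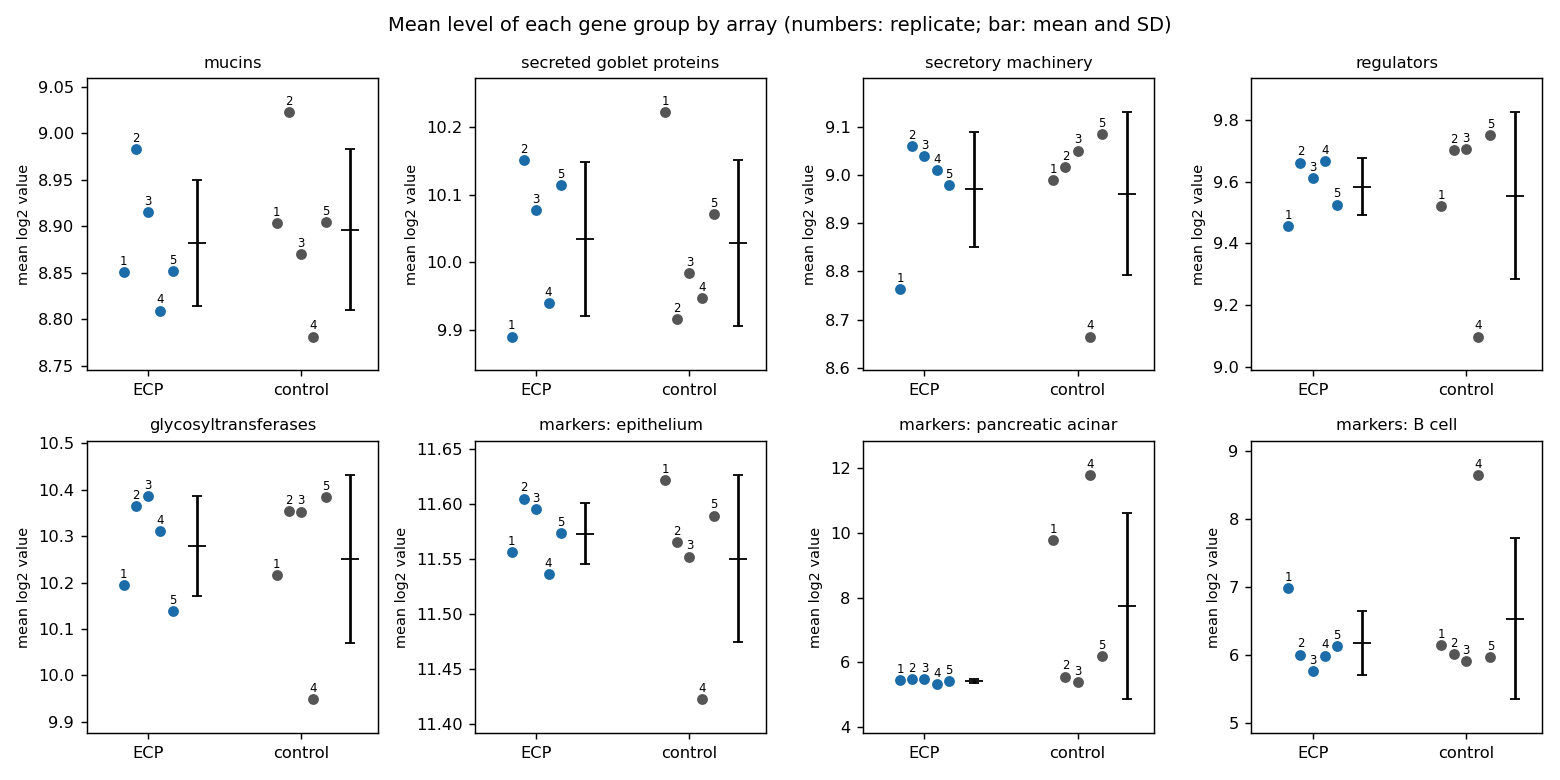
Mean log2 level of each role and of 3 marker lists on every array, ECP left of control, with replicate numbers on the points and the mean and SD of the group beside them. Control replicate 4 lies at the bottom for epithelial markers and for each role but the secreted proteins, and at the top for pancreatic acinar and B cell markers.

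Among the mucins, Muc2 stood at nearly the same value in both groups. This gel-forming mucin is the main structural protein of colonic mucus. It had 13.39, 13.54, 13.53, 13.53 and 13.50 in ECP replicates 1 to 5, against 13.50, 13.55, 13.49, 13.24 and 13.55 in control replicates 1 to 5. The groups overlapped, with control replicate 4 and then ECP replicate 1 the lowest. The difference was 0.03 (CI -0.13 to 0.19, limma adjusted p = 1.00) and -0.02 (CI -0.16 to 0.11) without control replicate 4. Muc2 lies near the top of the array's intensity range, and whether its signal was compressed there was not tested.

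No membrane mucin passed the test. Muc13, a transmembrane mucin of the epithelial surface, had 13.05, 13.10, 13.07, 12.97 and 13.03 in the ECP arrays, against 12.97, 13.10, 12.95, 12.87 and 12.98 in the controls, a difference of 0.07 (CI -0.07 to 0.20). The groups overlapped, with control replicates 3 and 4 below every ECP array. Muc4, a large membrane mucin that can bind the receptor ErbB2, differed by 0.12 (CI -0.19 to 0.43) and by -0.01 without control replicate 4. Muc20 had 5.81, 5.79, 5.50, 5.64 and 5.61 in the ECP arrays, against 5.68, 6.01, 5.78, 5.80 and 5.79 in the controls. The groups overlapped, with ECP replicate 3 the lowest and control replicate 2 the highest array, and the difference was -0.14 (CI -0.32 to 0.04, unadjusted p = 0.116, limma adjusted p = 0.998). Muc1 differed by -0.13 (CI -0.44 to 0.19). The differences became 0.04 for Muc13, -0.14 for Muc20 and -0.07 for Muc1 once control replicate 4 was left out.

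Muc5ac and Muc5b are gel-forming mucins best known from stomach and airway. Muc5b had 5.77, 5.71, 5.73, 5.68 and 5.82 in the ECP arrays, against 5.93, 5.61, 5.81, 5.94 and 5.78 in the controls, with a difference of -0.07 (CI -0.23 to 0.09). Muc5ac was at 5.33 ± 0.19 in ECP arrays and 5.32 ± 0.17 in the controls (SD, n = 5 each). No detection calls were analysed here, so whether these values stand above background was not tested. Leaving out control replicate 4 gave -0.04 for Muc5b and -0.05 for Muc5ac. As a role, the mucins had a mean level of 8.88 ± 0.07 in ECP arrays and 8.90 ± 0.09 in the controls (SD, n = 5 each).

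**Figure D3:**
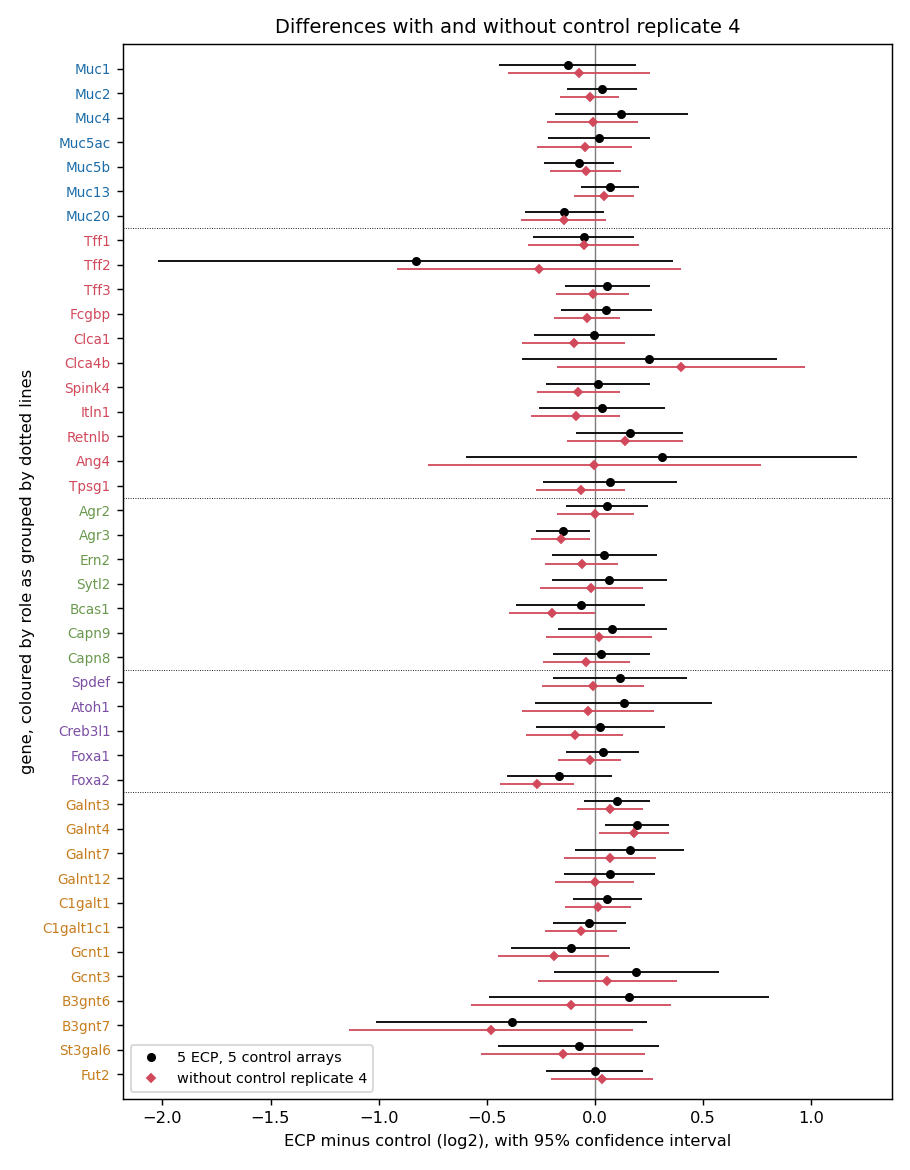
ECP minus control difference of each gene on the log2 scale with its 95% CI, in black over all 10 arrays and in red without control replicate 4. Intervals exclude 0 for Agr3 and Galnt4 over all arrays and for Agr3, Galnt4 and Foxa2 without that array, all before adjustment over all genes.

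No protein secreted beside Muc2 passed the test. Clca1 is a protease of the mucus gel, and Spink4 a small secreted protein with a protease inhibitor domain. Clca1 had 12.56, 12.97, 12.92, 12.63 and 12.54 in the ECP arrays, against 12.64, 12.82, 12.93, 12.34 and 12.89 in the controls, and Spink4 had 12.46, 12.74, 12.62, 12.50 and 12.42, against 12.54, 12.80, 12.60, 12.17 and 12.55. In both genes control replicate 4 was the lowest array and the other values were mixed between the groups. The differences were -0.002 for Clca1 (CI -0.28 to 0.28) and 0.01 for Spink4 (CI -0.23 to 0.25). Fcgbp, a large protein bound within the mucus gel, differed by 0.05 (CI -0.16 to 0.26), and Tff3, the trefoil peptide that goblet cells secrete to help the epithelium reseal, by 0.06 (CI -0.14 to 0.26). With control replicate 4 left out, the differences were -0.10 for Clca1, -0.08 for Spink4, -0.03 for Fcgbp and -0.01 for Tff3.

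Tff2 varied the most of the 42 genes over the arrays, by 3.35. This trefoil peptide is typical of gastric mucous cells and was first purified from pig pancreas. It had 6.22, 6.11, 6.42, 6.24 and 6.33 in ECP replicates 1 to 5, against 7.78, 6.12, 6.02, 9.37 and 6.17 in control replicates 1 to 5. Control replicates 1 and 4 were the 2 high arrays, and the 3 other controls lay within or just below the ECP values. Those are also the 2 arrays with the highest pancreatic acinar levels. The list of 9 gastric or duodenal symbols names the same gene by an old and a current symbol (Gif and Cblif). Its 8 measured genes, among them Tff1, averaged 5.32 to 5.49 in ECP arrays and 5.39 to 5.62 in the controls. The part of pancreatic or gastric tissue in the Tff2 values was not tested. The Tff2 difference was -0.83 (CI -2.02 to 0.36, limma adjusted p = 0.998), -0.26 without control replicate 4 and 0.16 without control replicates 1 and 4. Tff1, the other gastric trefoil peptide gene, differed by -0.05 (CI -0.29 to 0.18), and by -0.05 without control replicate 4.

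None of the antimicrobial proteins of goblet and crypt cells passed the test, and Ang4 had the widest spread among them. Ang4 codes for a bactericidal ribonuclease of the mouse intestine. It had 8.57, 9.97, 9.63, 9.02 and 9.67 in the ECP arrays, against 9.13, 8.53, 9.49, 7.82 and 10.35 in the controls. Its highest and lowest values were both controls, replicates 5 and 4, and the ECP values lay between them. The difference of 0.31 (CI -0.60 to 1.21) was -0.0033 without control replicate 4 and 0.63 without control replicate 5. Retnlb codes for RELM-beta, a goblet cell protein that acts on Gram-negative bacteria. It had 11.92, 12.01, 11.97, 12.11 and 12.21 in the ECP arrays, against 12.23, 11.69, 11.64, 11.80 and 12.04 in the controls. Control replicates 2, 3 and 4 lay below every ECP array and control replicate 1 above them all. The difference was 0.16 (CI -0.09 to 0.41, limma adjusted p = 0.998). Itln1, a lectin that binds microbial sugars, differed by 0.03 (CI -0.26 to 0.32). The differences became 0.14 for Retnlb and -0.09 for Itln1 once control replicate 4 was left out.

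Clca4b, of the same family as Clca1, had 12.27, 11.85, 12.05, 11.89 and 12.22 in the ECP arrays, against 12.38, 12.12, 11.21, 12.38 and 10.91 in the controls. Control replicates 3 and 5 lay below every other array, control replicates 1 and 4 were the highest, and control replicate 2 lay among the ECP values. Its difference of 0.25 (CI -0.34 to 0.84, limma adjusted p = 0.998) was 0.40 (CI -0.18 to 0.97) without control replicate 4 and 0.03 without control replicate 5. Tpsg1, a membrane-anchored tryptase, differed by 0.07 (CI -0.24 to 0.38), and by -0.07 without control replicate 4. Over the 11 secreted proteins the mean level was 10.03 ± 0.11 in ECP arrays and 10.03 ± 0.12 in the controls (SD, n = 5 each).

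**Figure D4:**
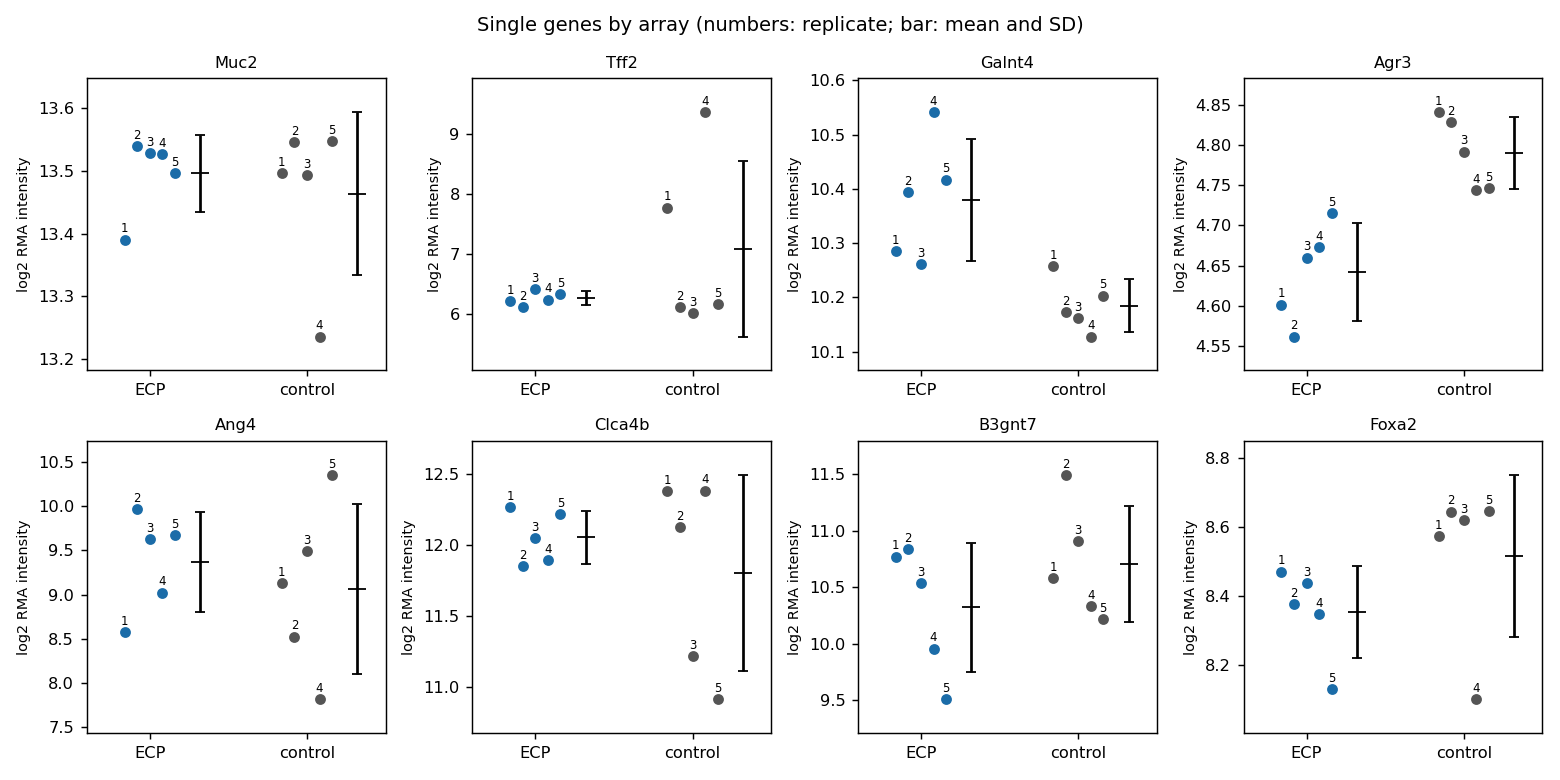
Log2 RMA intensity of 8 genes on every array, ECP left of control, with replicate numbers on the points and the mean and SD of the group beside them; each panel has its own axis. Galnt4 lies higher and Agr3 lower in all 5 ECP arrays than in the controls, and Tff2 is high in control replicates 1 and 4.

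In the secretory machinery, Agr2 differed little, and Agr3 had lower values on ECP arrays but did not pass the adjusted threshold. Agr2 is a protein disulfide isomerase of the endoplasmic reticulum that mice need to make Muc2. It had 12.04, 12.32, 12.33, 12.26 and 12.10 in the ECP arrays, against 12.29, 12.19, 12.11, 11.94 and 12.25 in the controls, and the groups overlapped. The difference was 0.06 (CI -0.13 to 0.25). Agr3, a close relative of Agr2, had 4.60, 4.56, 4.66, 4.67 and 4.72 in the ECP arrays, against 4.84, 4.83, 4.79, 4.74 and 4.75 in the controls. All 5 ECP arrays lay below all 5 controls, with gaps smaller than the spread within a group. Groups without overlap were found for 2 of the 42 genes, Agr3 and Galnt4, and for 1.22% of all genes. By direction this was 0.831% of all genes for the lower side, on which Agr3 lay, and 0.39% for the higher side, on which Galnt4 lay. The Agr3 difference was -0.15 (CI -0.27 to -0.02, unadjusted p = 0.0260, limma adjusted p = 0.937). Its values are low on this array, and its unadjusted p was under 0.05 in 7 of the 10 fits that left out 1 array, but not without ECP replicate 1, ECP replicate 2 or control replicate 2.

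Ern2 codes for IRE1-beta, the stress sensor of the endoplasmic reticulum that is special to mucous cells. It had 9.75, 10.0003, 10.10, 9.99 and 9.94 in the ECP arrays, against 9.97, 10.01, 10.04, 9.50 and 10.05 in the controls. Control replicate 4 was the lowest by a wide gap, and ECP replicate 1 the next. The difference was 0.04 (CI -0.20 to 0.28). Capn9, a calpain protease of the digestive tract, had 8.46, 8.82, 8.95, 8.68 and 8.60 in the ECP arrays, against 8.43, 8.71, 8.79, 8.37 and 8.81 in the controls, with a difference of 0.08 (CI -0.17 to 0.33). Its relative Capn8 differed by 0.03 (CI -0.19 to 0.25), the granule docking protein gene Sytl2 by 0.07 (CI -0.20 to 0.33) and Bcas1 by -0.07 (CI -0.37 to 0.23). Without control replicate 4 the Bcas1 difference was -0.20 (CI -0.40 to 0.00024), and the others were 0.0015 for Agr2, -0.16 for Agr3, -0.06 for Ern2, 0.02 for Capn9, -0.04 for Capn8 and -0.02 for Sytl2.

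In all 5 regulators control replicate 4 was the lowest array, and none passed the test. Atoh1 is the transcription factor that commits intestinal progenitors to the secretory fate. It had 9.81, 10.11, 9.90, 9.95 and 10.04 in the ECP arrays, against 9.50, 10.01, 10.26, 9.17 and 10.20 in the controls. Control replicates 1 and 4 were the lowest arrays and control replicates 3 and 5 the highest. Spdef, which drives goblet cell maturation downstream of Atoh1, had 9.25, 9.70, 9.61, 9.82 and 9.64, against 9.52, 9.62, 9.58, 8.99 and 9.74, with control replicate 4 lowest and ECP replicate 1 next. The differences were 0.13 for Atoh1 (CI -0.28 to 0.54) and 0.11 for Spdef (CI -0.20 to 0.42), and -0.03 and -0.01 without control replicate 4.

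Creb3l1, a membrane-bound transcription factor released under secretory load, had 10.65, 10.91, 10.90, 10.97 and 10.60 in the ECP arrays, against 10.76, 11.11, 10.86, 10.30 and 10.86 in the controls, and a difference of 0.03 (CI -0.27 to 0.32). Foxa1 and Foxa2 are forkhead factors needed for goblet cell differentiation and Muc2 expression. Foxa2 had 8.47, 8.38, 8.44, 8.35 and 8.13 in the ECP arrays, against 8.57, 8.65, 8.62, 8.10 and 8.65 in the controls. Control replicates 1, 2, 3 and 5 lay above every ECP array and control replicate 4 below them all. The difference was -0.16 (CI -0.41 to 0.08, limma adjusted p = 0.998), and without control replicate 4 it was -0.27 (CI -0.44 to -0.10, unadjusted p = 0.00533, limma adjusted p = 0.526). Foxa1 differed by 0.04 (CI -0.13 to 0.21). Leaving out control replicate 4 gave -0.09 for Creb3l1 and -0.02 for Foxa1.

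Upstream sequences of 5 of the genes lowest in control replicate 4 are shown: the mucus proteins Muc2 and Fcgbp, the regulators Spdef and Foxa1, and the glycosyltransferase Galnt7. Each is the run of 250 bases before the gene's start, from RefSeq on GRCm38.p6, in the direction of the gene. They are those of the lowest-in-that-array genes, besides Capn9, whose window holds a match to 1 of 4 motifs searched on both strands, and the match is in capitals.
Muc2, chr7:141690090-141690339, plus strand: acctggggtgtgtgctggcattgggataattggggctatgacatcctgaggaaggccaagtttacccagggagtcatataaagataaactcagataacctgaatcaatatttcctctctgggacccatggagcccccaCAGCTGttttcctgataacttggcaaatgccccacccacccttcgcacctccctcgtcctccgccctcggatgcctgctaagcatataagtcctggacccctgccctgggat
Fcgbp, chr7:28070986-28071235, plus strand: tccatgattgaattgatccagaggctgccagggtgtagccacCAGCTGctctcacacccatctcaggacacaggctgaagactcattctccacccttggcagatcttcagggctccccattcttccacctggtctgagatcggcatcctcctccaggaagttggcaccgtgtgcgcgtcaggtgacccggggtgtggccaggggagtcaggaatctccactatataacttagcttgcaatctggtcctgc
Spdef, chr17:27728952-27729201, minus strand: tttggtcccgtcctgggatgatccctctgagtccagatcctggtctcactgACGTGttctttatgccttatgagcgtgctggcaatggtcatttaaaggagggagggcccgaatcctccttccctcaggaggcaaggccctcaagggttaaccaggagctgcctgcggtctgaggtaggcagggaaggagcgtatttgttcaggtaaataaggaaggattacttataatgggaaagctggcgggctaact
Foxa1, chr12:57546112-57546361, minus strand: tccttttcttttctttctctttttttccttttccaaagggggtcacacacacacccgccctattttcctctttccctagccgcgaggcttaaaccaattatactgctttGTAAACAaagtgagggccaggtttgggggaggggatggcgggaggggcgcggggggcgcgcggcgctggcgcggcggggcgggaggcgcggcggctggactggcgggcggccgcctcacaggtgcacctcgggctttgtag
Galnt7, chr8:57653056-57653305, minus strand: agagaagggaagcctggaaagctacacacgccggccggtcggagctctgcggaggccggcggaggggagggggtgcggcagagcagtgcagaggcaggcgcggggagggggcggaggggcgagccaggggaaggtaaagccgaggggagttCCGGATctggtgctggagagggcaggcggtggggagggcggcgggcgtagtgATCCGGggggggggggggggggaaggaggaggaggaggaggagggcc

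The capitals mark CAGCTG, an E-box of the kind Atoh1 binds, 112 bases before the start of Muc2 and 208 before that of Fcgbp. They mark ACGTG, a core letter run of stress-response elements, 199 bases before Spdef, and TGTTTAC, the forkhead motif, read on the other strand 141 bases before Foxa1. CCGGAT, a core of the Spdef motif, stands 99 and, on the other strand, 47 bases before Galnt7. Of the 42 genes 24 had 31 such windows in the table, and each motif was found in 2 of the 31 (6.45%). The matches not shown were in Capn9 (CCGGAT), Muc20 (TGTTTAC) and B3gnt7 (ACGTG). The lowest array was ECP replicate 3 for Muc20 and ECP replicate 5 for B3gnt7. Over 32851 windows of all genes the shares were 13% for CAGCTG, 16.6% for ACGTG, 3.17% for TGTTTAC and 4.94% for CCGGAT. The motifs do not overlap one another in these 5 windows, and a match is a run of letters, not a measured binding site. Whether the motifs play a part in the low values was not tested.

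Among the glycosyltransferases, Galnt4 had the smallest p of the 42 genes. It belongs to the family that attaches the first sugar, N-acetylgalactosamine, to the mucin core. It had 10.29, 10.39, 10.26, 10.54 and 10.42 in the ECP arrays, against 10.26, 10.17, 10.16, 10.13 and 10.20 in the controls. All 5 ECP arrays lay above all 5 controls, but ECP replicate 3 exceeded control replicate 1 by less than 0.01. The difference was 0.20 (CI 0.05 to 0.34, unadjusted p = 0.0145), and it did not pass after adjustment over all genes (limma adjusted p = 0.822). Leaving out 1 array at a time gave 0.15 to 0.22.

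Its relatives Galnt3, Galnt7 and Galnt12 lay on the same side. Galnt3 had 10.48, 10.46, 10.56, 10.53 and 10.32 in the ECP arrays, against 10.42, 10.39, 10.33, 10.24 and 10.47 in the controls, and Galnt7 had 9.94, 10.27, 10.24, 10.27 and 10.24, against 9.91, 10.15, 10.13, 9.67 and 10.29. The groups overlapped in both, and ECP replicate 1 stood apart at the low end of the ECP arrays in Galnt7. The differences were 0.10 (CI -0.05 to 0.25), 0.16 (CI -0.09 to 0.41) and, for Galnt12, 0.07 (CI -0.14 to 0.28). Without control replicate 4 they were 0.07, 0.07 and -0.0015, and that of Galnt4 was 0.18 (limma adjusted p = 0.755).

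The next enzymes choose the core of the glycan. C1galt1 makes core 1 with its chaperone C1galt1c1, B3gnt6 makes core 3, and Gcnt1 and Gcnt3 add the branches of core 2 and, for Gcnt3, core 4. C1galt1 differed by 0.06 (CI -0.10 to 0.22), C1galt1c1 by -0.03 (CI -0.19 to 0.14) and Gcnt1 by -0.11 (CI -0.39 to 0.16). With control replicate 4 left out, the differences were 0.01 for C1galt1, -0.06 for C1galt1c1 and -0.19 for Gcnt1. Gcnt3 had 11.02, 11.39, 11.49, 11.58 and 11.75 in the ECP arrays, against 11.37, 11.08, 11.47, 10.71 and 11.64 in the controls, with control replicate 4 the lowest and ECP replicate 5 the highest array. Its difference was 0.19 (CI -0.19 to 0.58), or 0.06 without control replicate 4. B3gnt6 had 7.90, 8.42, 8.90, 8.85 and 8.47 in the ECP arrays, against 8.31, 8.34, 8.75, 7.26 and 9.08 in the controls, with control replicate 4 lowest and control replicate 5 highest. Its difference was 0.16 (CI -0.49 to 0.81), and -0.11 without control replicate 4.

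Among the enzymes that extend and cap the chains, B3gnt7 spread the most. It adds N-acetylglucosamine to growing chains. It had 10.77, 10.83, 10.53, 9.96 and 9.51 in ECP replicates 1 to 5, against 10.58, 11.49, 10.90, 10.33 and 10.22 in control replicates 1 to 5. ECP replicates 4 and 5 were the 2 lowest arrays and control replicate 2 the highest. The difference of -0.39 (CI -1.01 to 0.24, limma adjusted p = 0.998) was -0.18 without ECP replicate 5. Fut2, which adds the terminal fucose that gut bacteria feed on, had 11.67, 11.71, 11.77, 11.58 and 11.50 in the ECP arrays, against 11.69, 11.91, 11.42, 11.78 and 11.43 in the controls. The groups overlapped and their means were equal to the second decimal (CI -0.22 to 0.22). St3gal6, a sialyltransferase, differed by -0.07 (CI -0.45 to 0.30). The differences became -0.48 for B3gnt7, 0.03 for Fut2 and -0.15 for St3gal6 once control replicate 4 was left out. Over the 12 glycosyltransferases the mean level was 10.28 ± 0.11 in ECP arrays and 10.25 ± 0.18 in the controls, or 10.33 ± 0.08 without control replicate 4 (SD, n = 5, 5 and 4).

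Other genes of the same pathways gave no call either. For the counts above 0 in this list and those below, the share over all genes was 53.3%, or 51% without control replicate 4. Of 33 measured O-glycan and mucus-coat genes of 34 listed, 21 had a difference above 0 and 12 one below 0, and 0 passed after adjustment (limma), while 2 differences above 0 and 0 below had an unadjusted p under 0.05, where 2.31% of all genes had one on the higher side. These were the galactosyltransferase gene B4galt4, at 8.68 ± 0.12 in ECP arrays and 8.28 ± 0.28 in the controls (difference 0.39, CI 0.13 to 0.66, adjusted p = 0.700), and Galnt11, at 8.50 ± 0.15 and 8.17 ± 0.27 (difference 0.32, CI 0.05 to 0.59, adjusted p = 0.904). B3gnt2, which builds poly-lactosamine chains, differed by 0.16 (CI -0.03 to 0.35). The median difference of this list was 0.03. Without control replicate 4, 18 differences lay above 0 and 15 below, with a median of 0.02. B4galt4 then differed by 0.29, Galnt11 by 0.38 and B3gnt2 by 0.11. Gcnt2, a branching enzyme of lactosamine chains, joined the first 2 with an unadjusted p under 0.05 (difference 0.18, limma adjusted p = 0.755), which makes 3 of 33 where 2.86% of all genes had one on the higher side, and 0 passed after adjustment (limma).

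Of 25 measured further goblet cell and mucus genes of 27 listed, 15 had a difference above 0 and 10 one below 0, and with all arrays 0 were past the threshold, also before adjustment (limma). Best2, a bicarbonate channel of colonic goblet cells, was at 8.67 ± 0.38 in ECP arrays and 9.10 ± 0.39 in the controls (difference -0.43, CI -0.89 to 0.02). The inflammasome sensor gene Nlrp6 differed by 0.14 and the chaperone gene Hspa5 by 0.14. This list turned without control replicate 4, with 9 differences above 0 and 16 below and a median of -0.03, against 0.03 with all arrays. Then 3 of 25 had an unadjusted p under 0.05 on the lower side, where 3.54% of all genes had one, and 0 passed after adjustment (limma). These were Best2 (difference -0.54, CI -0.99 to -0.09, unadjusted p = 0.0231, adjusted p = 0.724), the secreted lectin gene Reg4 (-0.52, unadjusted p = 0.0468) and the chloride channel gene Ano1 (-0.38, unadjusted p = 0.0432). Nlrp6 differed by 0.13 and Hspa5 by 0.18 without that array. Control replicate 4 was the lowest array for 15 of these 25 genes and for 15 of the 33 O-glycan genes, against 20.4% of all genes.

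Of 15 Notch and secretory fate genes, 6 had a difference above 0 and 9 one below 0, and 0 passed after adjustment (limma). Cdx2, an intestinal identity factor, was at 11.00 ± 0.06 in ECP arrays and 10.81 ± 0.14 in the controls (difference 0.19, CI 0.02 to 0.35, unadjusted p = 0.0309, limma adjusted p = 0.939). It was the 1 of 15 with an unadjusted p under 0.05, where 2.31% of all genes had one on the higher side. Without control replicate 4 it differed by 0.13 (CI -0.01 to 0.27, unadjusted p = 0.0732), and its unadjusted p was under 0.05 in 5 of the 10 fits that left out 1 array. Rbpj, the DNA-binding partner of Notch, differed by 0.13 and the endocrine fate factor gene Neurog3 by -0.20, or by 0.15 and -0.14 without control replicate 4. The split of the list was again 6 above 0 and 9 below without that array. Sox9, a factor of crypt progenitors (-0.21, limma adjusted p = 0.768), and the Notch ligand gene Dll4 (-0.15, adjusted p = 0.774) then had an unadjusted p under 0.05. This makes 2 of 15 where 3.54% of all genes had one on the lower side, and 0 passed after adjustment (limma). Gcnt2, Reg4, Ano1, Sox9 and Dll4 were named after their values were seen. Of 13 cytokines and receptors that act on goblet cells, 8 had a difference above 0 and 5 one below 0, and 0 were past the threshold before or after adjustment. Il22, which induces mucin and antimicrobial genes, was at 5.78 ± 0.17 in ECP arrays and 5.54 ± 0.22 in the controls (difference 0.24, CI -0.01 to 0.49), while Il10rb differed by 0.05 and Stat6 by 0.07. With control replicate 4 left out, 9 differences lay above 0 and 4 below, with 0 past the threshold before or after adjustment (limma), and the differences were 0.16 for Il22, 0.05 for Il10rb and 0.12 for Stat6.

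The spread within the groups also depended on 1 array. The SD over the controls exceeded that over the ECP arrays for 34 of the 42 genes, where this held for 65.8% of all genes. Without control replicate 4 it held for 17 of the 42, where it held for 55.4% of all genes.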

How the data were processed

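The submitters deposited log2 probe set intensities of 10 arrays, which the authors computed with oligo and its RMA method, per the submitters' processing notes, with versions, options and detection calls not given in the sources used here. The table held 22203 probe sets, with array medians from 6.94 to 6.98. RMA equalises the distribution of the arrays, so it would hide a shift of most genes at once.

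Probe sets were named through the platform annotation. Of them 19572 had 1 gene symbol each and 2631 were unnamed here. For genes with several, the one with the highest mean was used, which left 19505 genes. Groups and replicate numbers came from the sample titles. Whether the arrays of a group come from different mice is not stated, and p-values then cover the spread of these samples alone. The number of arrays limits the precision.

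Genes were compared with limma 3.58.1 in R 4.3.3 (lmFit, eBayes, two-sided, no covariate, no filter), p-values adjusted by Benjamini-Hochberg across all named genes, threshold 0.05. The script was tested on simulated data. Levels of a list are means of its members' log2 values, with no test. The SE of a level is that of a difference of 2 means.

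The members and lists were chosen with earlier results of these data known, and so were the doubts about control replicates 1 and 4. Values per array are given, per role, for the 3 members with the smallest p and the 2 with the highest mean, for members whose groups do not overlap and for the 3 with the widest range. Of other lists, the 3 genes with the smallest p are named. Further genes are given by their difference. Alternatives were 2 rescalings, 2 filters on dim genes, averaging the probe sets of each gene, trend and robust options, array weights, a replicate block, the epithelial level as a covariate, leaving out each array, and leaving out control replicates 1 and 4. Upstream sequences came from a RefSeq table (GRCm38.p6).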

Additional observations from a re-analysis of the deposited data

Results flagged for a closer look

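Among 120 sets of 5 values (1 gene or level in 1 group), 10 held a single array set apart, its distance to the next value exceeding 0.71 of the range. Chance flags about 1 in 20 groups, and these groups are not independent, because the genes vary together and the levels are built from them. Levels of the cell markers were not among these sets. All 10 were low values, in control replicate 4 or ECP replicate 1.

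ECP replicate 1 was low in the secretory machinery (8.76, next 8.98), Muc2 (13.39, next 13.50), Foxa1 (9.10, next 9.20) and Galnt7 (9.94, next 10.24). Control replicate 4 was low in the mean level of the 42 genes (9.44, next 9.71) and of the secretory machinery (8.67, next 8.99). It was low in Muc2 (13.24, next 13.49), Fcgbp (11.99, next 12.36), Ern2 (9.50, next 9.97) and Foxa2 (8.10, next 8.57). These 2 arrays had the highest B cell levels of their groups (6.99 in ECP replicate 1, 8.65 in control replicate 4), whose part in the low values was not tested.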

How the results depend on the processing

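No gene of the set passed the adjusted threshold in any of the 10 alternatives or the 10 fits without 1 array (limma, 0 of 412 values in the alternatives). The count over all genes, 0, became 1 without the lowest quartile of genes, 7 without genes below the median level, 1 with trend and robust options and 3 with the epithelial level as a covariate, and 0 to 1 without 1 array (1 without control replicate 3). The count of 2 at an unadjusted p under 0.05 became 1 without the lowest quartile and 1 without genes below the median level (these filters leave out Agr3). It became 1 with trend and robust options, 3 with array weights and 3 with the epithelial covariate (Agr3, Foxa2 and Galnt4 in both). It became 4 without control replicates 1 and 4 (Clca4b, Retnlb, Foxa2 and Galnt4). Without 1 array it was 1 to 3 (1 for ECP replicates 1 and 2 and control replicate 2 left out, 3 for control replicates 1 and 4). The mean differences of the 5 roles and of the whole set moved by less than the SD pooled over both groups in every alternative and fit without 1 array. Control replicate 4 itself widens that SD: the regulators' difference of 0.03 was -0.09 without it, a move larger than the ECP SD of 0.09.

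The sign of a difference was kept in 373 of 412 values, and 19 of 42 genes kept it without each array in turn. No difference of the set passed the adjusted threshold, reversed or not, and the cause of the reversals was not tested beyond the arrays left out. The reversed values include that of Tff2, whose difference over all arrays was the largest in size of the set (-0.83). They were Muc2 -0.033, Muc4 -0.027, Muc5ac -0.066, Muc5b 0.0073, Tff2 0.16, Fcgbp -0.058, Spink4 -0.10, Itln1 -0.046, Ang4 -0.084, Tpsg1 -0.11, Ern2 -0.076, Sytl2 -0.029, Capn9 -0.066, Capn8 -0.076, Spdef -0.041, Atoh1 -0.20, Creb3l1 -0.14, Foxa1 -0.015, C1galt1 -0.016 and B3gnt6 -0.21 without control replicates 1 and 4, Muc5ac -0.016, Spink4 -0.042, Itln1 -0.018, Tpsg1 -0.015, Ern2 -0.0056, Capn8 -0.027, Atoh1 -0.042 and Creb3l1 -0.045 with array weights, Muc2 -0.0011, Muc5ac -0.029, Spink4 -0.040, Itln1 -0.049, Tpsg1 -0.011, Ern2 -0.018, Capn8 -0.0049, Creb3l1 -0.035 and Foxa1 -0.0010 with the epithelial covariate, Fut2 -0.0058 with median centring, and Clca1 0.0042 with renewed quantile normalisation. Without 1 array the ranges that crossed 0 were Muc2 -0.025 to 0.059, Muc4 -0.011 to 0.20, Muc5ac -0.055 to 0.062, Tff1 -0.13 to 0.012, Tff3 -0.011 to 0.11, Fcgbp -0.035 to 0.094, Clca1 -0.099 to 0.049, Spink4 -0.077 to 0.081, Itln1 -0.089 to 0.096, Ang4 -0.0033 to 0.63, Tpsg1 -0.067 to 0.14, Ern2 -0.060 to 0.095, Sytl2 -0.016 to 0.16, Capn8 -0.041 to 0.091, Spdef -0.0097 to 0.20, Atoh1 -0.032 to 0.24, Creb3l1 -0.094 to 0.11, Foxa1 -0.024 to 0.073, Galnt12 -0.0015 to 0.13, C1galt1c1 -0.065 to 0.027, B3gnt6 -0.11 to 0.34, St3gal6 -0.17 to 0.054 and Fut2 -0.056 to 0.067. Of the 42 differences 18 were reversed without control replicate 4.

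The replicate numbers are not stated to pair the arrays, and deviations of same-numbered arrays correlated from -0.24 to 0.08, nor did every array correlate best with its own number (ECP replicate 1 did so with control replicate 4, 0.40). With the replicate block, 0 genes of the set passed and 2, Galnt4 and B3gnt7, had an unadjusted p under 0.05. Signal over background was not given, which limits what the low values of Agr3, Muc5ac, Muc5b, Muc20 and Tff1 show.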

Other observations

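Tgm3, a transglutaminase that cross-links the mucus gel, was picked after its values were seen. It had 10.90, 10.67, 10.09, 8.24 and 7.18 in ECP replicates 1 to 5, against 9.40, 11.47, 10.95, 9.07 and 9.50 in control replicates 1 to 5, a difference of -0.66 (CI -2.23 to 0.91). As in B3gnt7, ECP replicate 5 was the lowest and control replicate 2 the highest array. Aqp8, the water channel of colonocytes, also picked after its values were seen, was at 10.43 to 11.66 in the ECP arrays, against 8.44 in control replicate 4.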
